A study of Gallus gallus with 15 samples.

Results

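Transcripts of the mitochondrial carrier family, the SLC25 solute carriers and the uncoupling proteins, were followed in abdominal adipose tissue of young chickens. The members were taken by symbol, as every gene whose symbol in the array annotation is SLC25A or UCP followed by a number. Earlier results of these data were known when they were chosen. The annotation holds 34 such genes on 72 probe sets. Of these, 27 genes on 45 probe sets were kept after probe sets with values below 3 on 5 or more of the 15 arrays were removed, among 9243 genes and 18612 probe sets kept in all. The birds were male broilers of the commercial line ISA915 at 16 to 17 days of age, in 3 groups of 5. Fed birds ate freely, fasted birds went without feed for 5 h, and both received normal porcine serum. Insulin-neutralized birds kept their feed and were given porcine serum with antibodies against insulin at 0, 2 and 4 h. Every bird thus carried porcine serum, and the insulin-neutralized birds differed from the fed birds in the antibody. The labels number the birds of a group as separate biological replicates, and RNA of each bird was hybridized to 1 Affymetrix GeneChip Chicken Genome Array.

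Mitochondrial carriers are small proteins of the inner mitochondrial membrane that exchange metabolites, nucleotides and cofactors between the matrix and the cytosol. ADP and ATP, phosphate, citrate, the aspartate and glutamate of the malate-aspartate shuttle, and acylcarnitines each cross the membrane through members of this family, so that both fatty acid oxidation in the matrix and fatty acid synthesis in the cytosol depend on it. Adipocytes of birds lack the brown fat program of mammals, and the uncoupling protein known from birds is a muscle protein. Most substrates given below were assigned in mammals.

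Values are on the log2 scale after GCRMA, a method that corrects the background, normalizes the arrays and summarizes the probes of a set, so that a difference of 1 is a doubling. Where several probe sets of a gene were kept, the one with the highest mean stands for it. The groups were compared with limma, and a call means a p under 0.05 after Benjamini-Hochberg adjustment over all probe sets of the comparison. All adjusted p-values below come from limma. In bulk tissue, fewer cells of a type and less RNA per cell cannot be told apart. The adipocyte markers were present, as 7 of the 8 listed genes were kept and their summed level lay between 17.27 and 17.62 in all 15 birds, with PPARG lower in fasted vs. fed and CIDEC in insulin-neutralized vs. fasted birds. Fed birds 4 and 5 stood apart from the other birds, with mean correlations of 0.955 and 0.958 to the other arrays against 0.963 to 0.977, and results are therefore also given without them. In fed bird 4 the summed level of the 7 endothelial markers was 14.35, against 15.18 to 15.37 in the other fed birds. It was 15.23 to 15.63 in insulin-neutralized and 15.27 to 15.59 in fasted birds. Of these markers 1, CDH5, was called higher in the fasted group than in fed birds. KDR lay the other way without a call, at 8.24 to 9.32 in fed and 7.23 to 8.75 in fasted birds. The 5 mesothelial markers summed to 14.62 in fed bird 4 and to 11.27 to 14.25 in all other birds. MSLN, LRRN4, KRT7 and CDH1 were at their highest among fed birds there, with KRT7 at 14.01. BNC1 went the other way, at 6.31 in fed bird 4 against 6.88, 7.95 and 7.29 in fed birds 1 to 3.

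Some members of the family were called with fasting, and with all birds the calls went both ways. In fasted vs. fed birds, 4 of 27 genes were called (14.8%). The ATP-Mg/phosphate carrier SLC25A25 and the pyrimidine nucleotide carrier SLC25A36 were up-regulated, and the glutamate carrier SLC25A22 and the glutathione carrier SLC25A39 were down-regulated. Over all genes 10.7% were called in this comparison, so that the share in the family lay near that of the array. By probe sets, 6 of 45 were called (13.3%), 2 higher and 4 lower, beside 9.64% of all probe sets. Fasted and fed birds did not overlap for 4 of the 27 genes, beside 9.47% of all genes. By probe sets this held for 6 of 45, beside 8.39% of all. The median log2 fold change of the 27 genes was -0.24, with 21 of 27 negative, against a median of -0.05 and 57.2% negative over all genes. Without fed birds 4 and 5, the log2 fold changes of 12 genes moved by over 1.5 times and those of 5 turned in sign (13 and 7 in insulin-neutralized vs. fed birds). The 5 that turned in fasted vs. fed birds lay close to 0 with all birds, between -0.09 and 0.09. How many of all genes moved or turned in this way was not counted. With fed birds 4 and 5 left out, limma called 6 of 27 genes, 1 higher and 5 lower, and the median was -0.10 (9.75% of all genes and 8.96% of all probe sets called).

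No member was called after insulin neutralization. In insulin-neutralized vs. fed birds, limma called 0 of 27 genes and 0 of 45 probe sets, beside 0.595% of all genes and 0.494% of all probe sets. An unadjusted p under 0.05 was reached by 7 of the 27 genes and 9 of the 45 probe sets, and by 20.1% of all genes and 17.5% of all probe sets. The log2 fold changes ran from -0.58 to 0.49 with a median of -0.08, and the count stayed at 0 under every alternative that was run. At a share of 0.595% in the background, a count of 0 among 27 genes says little about the family. SLC25A51, an NAD carrier, was the member without overlap between these groups (11.25 to 11.39 in insulin-neutralized and 11.40 to 11.73 in fed birds, log2 fold change -0.20, adjusted p = 0.278, and -0.10 without fed birds 4 and 5). Over all genes, 4.99% had no overlap between these groups.

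In direct comparison of the treatments, insulin-neutralized birds had less SLC25A25 and more SLC25A22 than fasted birds. These were 2 of 27 genes (7.41%), beside 4.36% of all genes. By probe sets, 3 of 45 were called (6.67%) beside 4.06% of all probe sets, the third belonging to the ornithine carrier SLC25A15. The 2 groups did not overlap for 6 of the 27 genes, beside 9.57% of all genes. These were SLC25A25 and the uncoupling protein relative SLC25A14, with every insulin-neutralized bird below every fasted bird, and the amino acid carriers SLC25A12, SLC25A13, SLC25A22 and SLC25A29, with the opposite order. These orders hold for the representative probe sets. The other kept probe sets of SLC25A13 and SLC25A14 overlapped, and that of SLC25A14 had the opposite sign (0.29, adjusted p = 0.524). When fed birds 4 and 5 were left out, 4 of 27 genes were called, 3 higher and 1 lower (8.99% of all genes and 8.12% of all probe sets). The comparisons share groups of birds, so that their fold changes are not independent of each other.

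**Figure D1:**
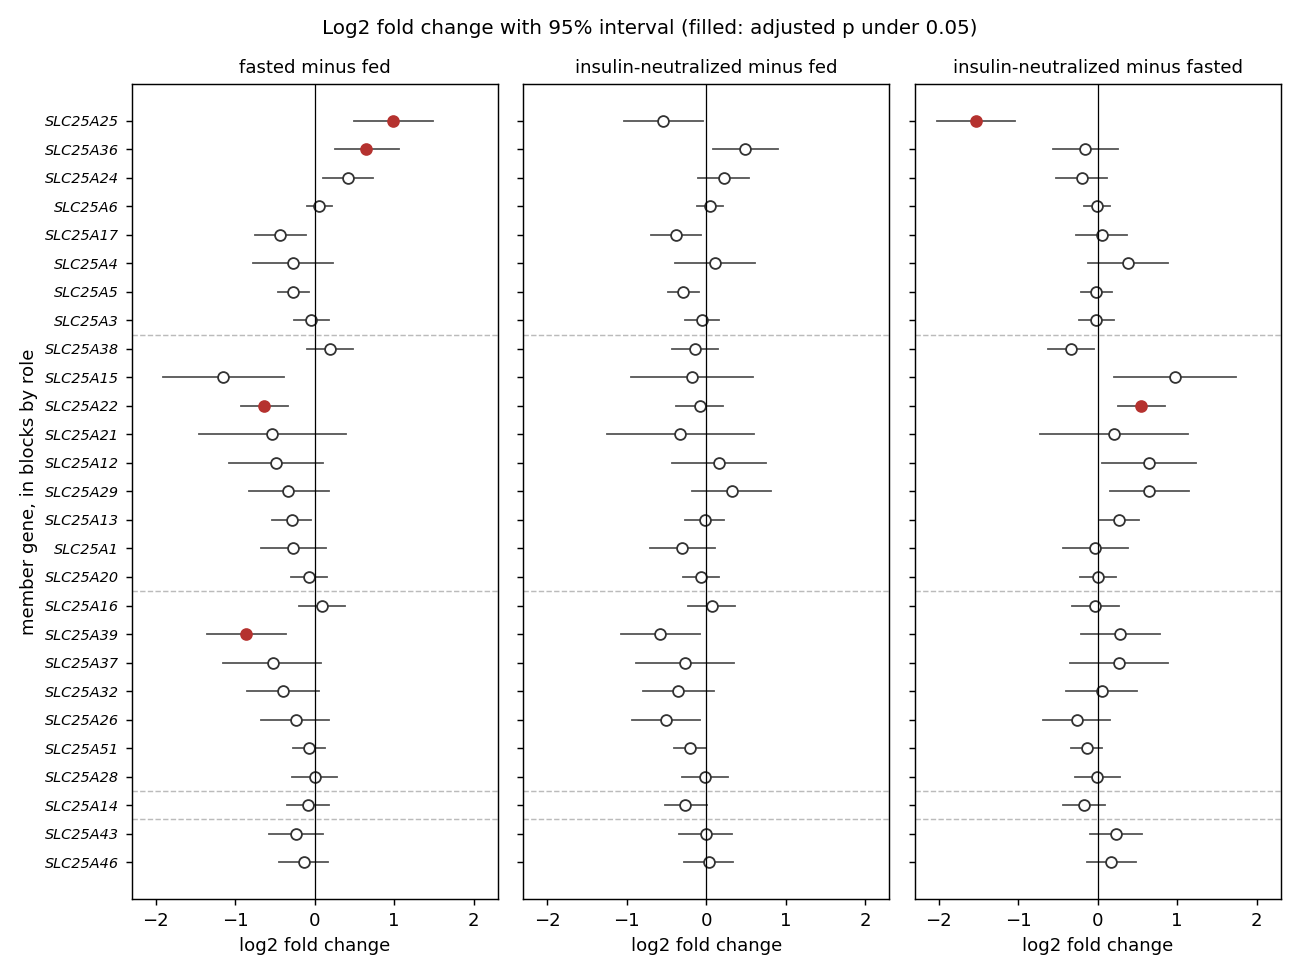
Log2 fold changes of the 27 member genes in the 3 comparisons, with 95% intervals from limma, in blocks by role (from the top: nucleotide and phosphate carriers, carboxylate and amino acid carriers, cofactor and metal carriers, SLC25A14, and carriers without an assigned substrate). Filled points have an adjusted p under 0.05: 4 in fasted minus fed, 0 in insulin-neutralized minus fed and 2 in insulin-neutralized minus fasted birds.

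Both members called higher with fasting were nucleotide and phosphate carriers. Of 9 such genes in the annotation 8 were kept, with 2 higher and 0 lower in fasted vs. fed birds and a median log2 fold change of 0.01. Over all genes 10.7% were called. Without fed birds 4 and 5, 1 of the 8 was called (12.5%, beside 9.75% of all genes). SLC25A25 imports adenine nucleotides into the matrix in exchange for phosphate, and is activated by calcium. It measured 5.68, 5.93, 5.48, 5.81 and 5.91 in fed birds 1 to 5. In fasted birds it measured 6.20, 6.42, 6.47, 7.61 and 7.07, and in insulin-neutralized birds 5.63, 5.10, 5.09, 4.95 and 5.35. Every fasted bird lay above every other bird, and 4 of the 5 insulin-neutralized birds lay below every fed bird. Fasting raised SLC25A25 1.99-fold over fed birds (log2 fold change 0.99, SE 0.23, 95% interval 0.50 to 1.49, adjusted p = 0.0151). Insulin-neutralized birds stood 2.88-fold below the fasted birds (log2 fold change -1.53, SE 0.23, adjusted p = 0.00228), and their difference from fed birds was -0.54 (interval -1.03 to -0.04, adjusted p = 0.256). The difference between the treatments was called in all 27 alternative settings, and that between fasted and fed birds in 26 of them (adjusted p = 0.0522 when the third group was left out of the fit). The 2 further probe sets of the gene stayed at 2.18 to 2.19 in all birds and were not kept. With 1 kept probe set, the setting that takes the lowest probe set of each gene repeated the main fit.

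SLC25A36, which carries pyrimidine nucleotides in mammals, measured 11.54, 11.62, 11.30, 10.37 and 10.95 in fed birds. In fasted birds it measured 12.00, 11.74, 11.88, 11.74 and 11.67, and in insulin-neutralized birds 11.77, 11.57, 11.64, 11.61 and 11.66. The fasted birds all lay above the fed birds, and the insulin-neutralized birds lay within a narrow band between, overlapping both. Fasting raised the gene 1.57-fold (log2 fold change 0.65, SE 0.19, adjusted p = 0.0432). Fed birds 4 and 5 held the lowest values, and without them the log2 fold change was 0.32 (SE 0.0962, adjusted p = 0.0595). The call lay close to the threshold and was lost in 18 of 27 alternative settings. Among these was the omission of any bird other than fed bird 1, 2 or 4, insulin-neutralized birds included (adjusted p up to 0.0945 without 1 bird). Insulin-neutralized minus fed birds gave 0.49 (adjusted p = 0.217), or 0.16 without fed birds 4 and 5. A second probe set of SLC25A36 measured 3.85 in 10 of the 15 birds and gave 0.22 (adjusted p = 0.451).

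The other nucleotide carriers were not called by their representative probe set. SLC25A24, the sister of SLC25A25 with the same substrates, measured 11.94, 11.78, 12.22, 11.60 and 11.82 in fed, 12.61, 12.36, 12.03, 12.45 and 11.99 in fasted, and 12.29, 11.82, 11.95, 12.28 and 12.08 in insulin-neutralized birds. The groups overlapped, and the log2 fold change was 0.42 in fasted vs. fed birds (adjusted p = 0.0935). It was the third member, after SLC25A25 and SLC25A36, in the order of positive changes. SLC25A17, a peroxisomal member that carries coenzyme A, FAD and NAD, gave -0.43 in fasted vs. fed (adjusted p = 0.0868) and -0.38 in insulin-neutralized vs. fed birds (adjusted p = 0.230), or -0.21 and -0.15 without fed birds 4 and 5. Its second probe set measured 8.33, 8.01, 8.20, 8.70 and 8.28 in fed birds and 7.81, 7.94, 7.94, 7.79 and 7.80 in fasted birds. These did not overlap (log2 fold change -0.45, adjusted p = 0.0437), but of the 25 settings that apply to such a probe set 22 ended the call, with adjusted p up to 0.128. The omission of any bird other than insulin-neutralized bird 5 and fed bird 2 ended it.

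The ADP/ATP carriers and the phosphate carrier, which together supply the ATP synthase, were called in no comparison with all birds. By its representative probe set, SLC25A6 was the least variable member between birds of a group (pooled SD 0.0892). It measured 15.04, 15.02, 14.97, 14.84 and 15.12 in fed, 15.14, 14.97, 14.98, 15.14 and 15.07 in fasted and 15.18, 15.04, 14.97, 15.01 and 15.03 in insulin-neutralized birds. The 3 groups overlapped, and the 95% intervals of the difference from fed birds were -0.10 to 0.22 with fasting and -0.11 to 0.21 with insulin neutralization. The phosphate carrier SLC25A3 measured 13.58, 13.30, 13.35, 13.54 and 13.73 in fed, 13.48, 13.52, 13.36, 13.33 and 13.62 in fasted and 13.46, 13.49, 13.24, 13.41 and 13.61 in insulin-neutralized birds. Its intervals against fed birds were -0.26 to 0.18 and -0.27 to 0.16 in the same order. Neither gene was called in any comparison. A second kept probe set of SLC25A6 had SDs of 0.273 in fed, 0.198 in insulin-neutralized and 0.242 in fasted birds. With fasting it gave -0.15 (adjusted p = 0.588), where the representative set gave 0.06.

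SLC25A5, the ADP/ATP carrier of many tissues in mammals, measured 12.95, 12.76, 12.93, 13.23 and 13.10 in fed birds. It measured 12.78, 12.62, 12.71, 12.66 and 12.87 in fasted and 12.79, 12.65, 12.65, 12.67 and 12.77 in insulin-neutralized birds. Both treated groups lay mostly below the fed birds, with an overlap in fed bird 2, and gave -0.27 (adjusted p = 0.0807) and -0.29 (adjusted p = 0.158). Without fed bird 2 the difference between fasted and fed birds was called (-0.33, adjusted p = 0.0327), while without fed birds 4 and 5 it was -0.15 (adjusted p = 0.253). SLC25A4, the isoform of heart and skeletal muscle in mammals, measured 10.10, 10.16, 9.96, 10.90 and 10.10 in fed, 9.55, 10.42, 10.53, 9.91 and 9.46 in fasted and 10.57, 10.39, 9.90, 10.44 and 10.46 in insulin-neutralized birds. The groups overlapped, with -0.27 in fasted vs. fed birds (adjusted p = 0.519, and -0.10 without fed birds 4 and 5). Of 10 listed skeletal muscle markers 3 were kept. Of these 1, ACTA1, fell with fasting and was higher in insulin-neutralized vs. fasted birds (log2 fold change 1.25, adjusted p = 0.0139). MYL1 and TNNT3 were not called. The summed level of the listed markers in the annotation was 9.85 to 11.22 in fed, 10.26 to 11.70 in insulin-neutralized and 9.39 to 9.80 in fasted birds. It largely repeats ACTA1, which alone measured 9.57 to 11.16 in fed and 9.15 to 9.54 in fasted birds. MB and MYLPF were near the lowest value of the arrays. The part of the muscle markers in the values of SLC25A4 in these groups was not tested. The representative probe sets of 10 members, SLC25A3, SLC25A4, SLC25A6, SLC25A13, SLC25A14, SLC25A17, SLC25A32, SLC25A36, SLC25A37 and SLC25A39, carry the suffix that Affymetrix gives to sets whose probes match more than 1 transcript, and signal from a related carrier could not be separated.

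**Figure D2:**
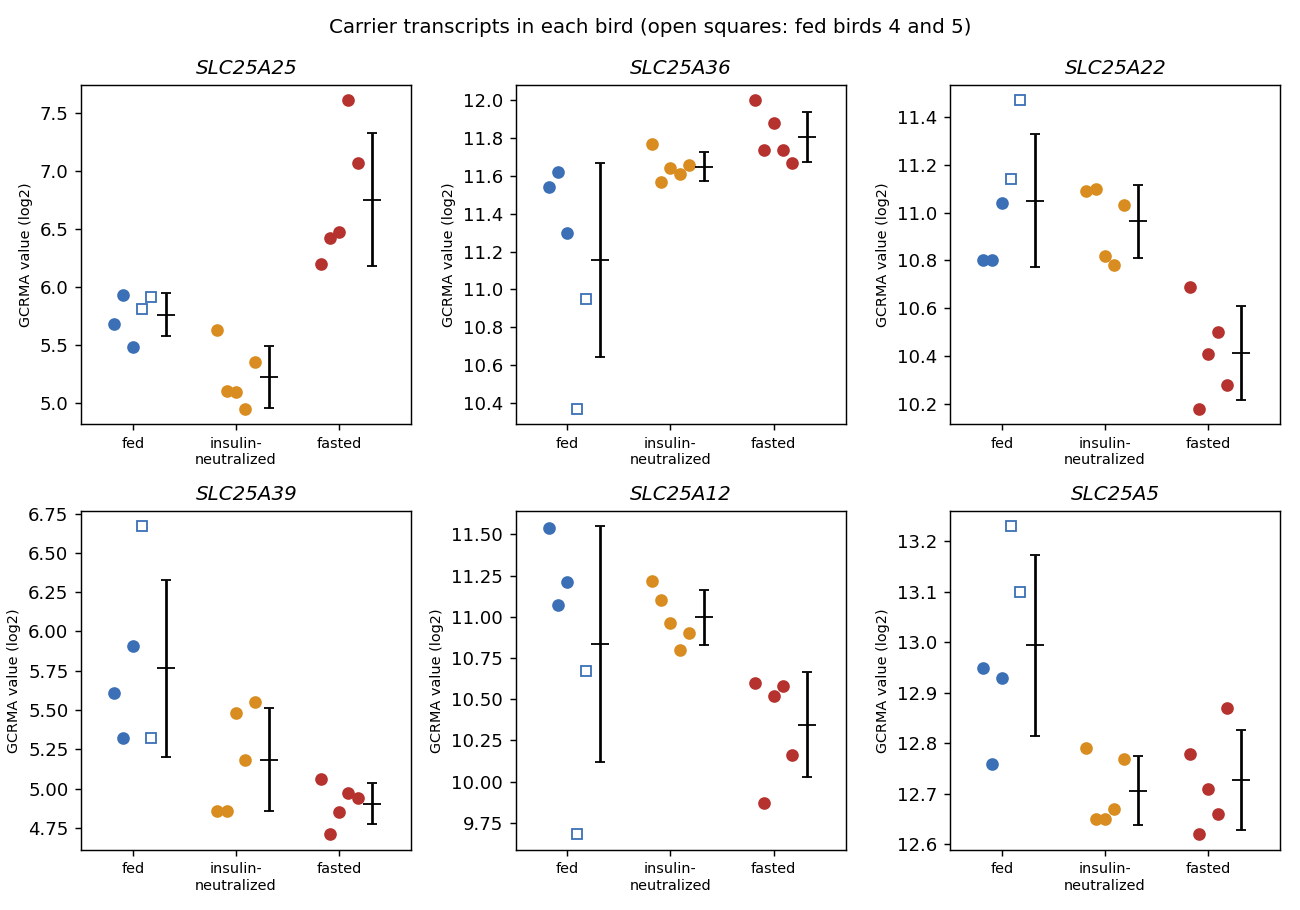
GCRMA values (log2) in each bird for SLC25A25, SLC25A36, SLC25A22, SLC25A39, SLC25A12 and SLC25A5, with the mean and SD of each group of 5 beside the points and fed birds 4 and 5 as open squares. The vertical axes differ between panels and do not start at 0. The lowest fasted bird for SLC25A25 is at 6.20, above the highest fed bird at 5.93, and fed bird 4 is the lowest of all birds for SLC25A36 and SLC25A12.

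Carriers of carboxylates, amino acids and acylcarnitines had negative log2 fold changes with fasting in most members, and 1 was called, beside 10.7% of all genes. Of 10 such genes 9 were kept, 8 of the 9 had a negative log2 fold change in fasted vs. fed birds, as had 57.2% of all genes, and the median was -0.33. Insulin-neutralized minus fed birds gave a median of -0.08, and insulin-neutralized minus fasted birds a median of 0.27 with 2 of 9 negative. Leaving out fed birds 4 and 5, 4 of these 9 genes were called in fasted vs. fed birds, all lower, with a median of -0.47, and 3 of 9 in insulin-neutralized vs. fasted birds, all higher, beside 9.75% and 8.99% of all genes.

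SLC25A22 brings glutamate into the matrix with a proton and held the lowest adjusted p of the family in fasted vs. fed birds. It measured 10.80, 10.80, 11.04, 11.14 and 11.47 in fed birds. In fasted birds it measured 10.69, 10.18, 10.41, 10.50 and 10.28, and in insulin-neutralized birds 11.09, 11.10, 10.82, 10.78 and 11.03. Every fasted bird lay below every bird of the other groups, while fed and insulin-neutralized birds overlapped. Fasting lowered the gene 1.55-fold (log2 fold change -0.64, SE 0.14, 95% interval -0.93 to -0.34, adjusted p = 0.0101). The call was kept in all 27 alternative settings, with log2 fold changes of -0.71 to -0.46 (adjusted p up to 0.0415). It stood at -0.47 without fed birds 4 and 5 (adjusted p = 0.0385). As the gene has 1 kept probe set, the setting with the lowest probe set repeated the main fit. Insulin-neutralized birds were 1.47-fold above fasted birds (log2 fold change 0.55, adjusted p = 0.0376), and -0.08 from fed birds (interval -0.38 to 0.21), or 0.08 without fed birds 4 and 5. The difference between the treatments was lost in 11 of 27 settings, with adjusted p up to 0.0916. Among these settings was the omission of fasted bird 2, 3, 4 or 5 or of insulin-neutralized bird 1, 2, 3 or 5.

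The aspartate/glutamate carriers SLC25A12 and SLC25A13 move aspartate out of the matrix in the malate-aspartate shuttle, which passes reducing equivalents of cytosolic NADH to the matrix. SLC25A12 measured 11.54, 11.07, 11.21, 9.68 and 10.67 in fed birds. It measured 10.60, 9.87, 10.52, 10.58 and 10.16 in fasted and 11.22, 11.10, 10.96, 10.80 and 10.90 in insulin-neutralized birds. Apart from fed bird 4, which held the lowest value of all, every bird with feed lay above every fasted bird. With all birds the log2 fold change of fasted vs. fed was -0.49 (SE 0.28, adjusted p = 0.299). Without fed birds 4 and 5 it was -0.93 (SE 0.18, adjusted p = 0.00794), without fed bird 4 it was -0.78 (adjusted p = 0.0231), and with array weights -0.72 (adjusted p = 0.0253). SLC25A13 measured 11.63, 11.60, 11.50, 11.06 and 11.30 in fed, 11.14, 11.32, 11.17, 11.06 and 10.93 in fasted and 11.33, 11.32, 11.52, 11.44 and 11.38 in insulin-neutralized birds. Here too fed birds 4 and 5 were the lowest of the fed birds, and the change was -0.29 with all birds (adjusted p = 0.117), -0.45 without both (adjusted p = 0.00945) and -0.38 without fed bird 4 (adjusted p = 0.0269). All 3 kept probe sets of SLC25A13 were negative, from -0.53 to -0.29. Insulin neutralization gave 0.16 for SLC25A12 and -0.02 for SLC25A13 against fed birds (intervals -0.43 to 0.75 and -0.26 to 0.22), or -0.28 and -0.18 without fed birds 4 and 5, and 0.65 and 0.27 against fasted birds (adjusted p = 0.233 and 0.213).

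SLC25A29, a carrier of basic amino acids, also had its lowest group mean in fasted birds. It measured 11.72, 11.96, 11.66, 10.48 and 11.61 in fed, 11.29, 11.24, 11.22, 11.45 and 10.60 in fasted and 11.66, 11.93, 11.76, 11.81 and 11.89 in insulin-neutralized birds. Fed bird 4 and fasted bird 5 were far below the rest of their groups. The log2 fold change of fasted vs. fed birds was -0.33 (adjusted p = 0.425), and -0.62 without fed birds 4 and 5 (adjusted p = 0.0343). Insulin-neutralized birds exceeded fasted birds by 0.65 on the log2 scale (adjusted p = 0.152), and this was called without fed birds 4 and 5 at the same size (adjusted p = 0.0176), as was the difference of 0.65 for SLC25A12 (adjusted p = 0.0261). Leaving out fed birds does not alter the means of the groups compared there, only the estimate of the spread and the adjustment. In fed bird 4 these carriers stood beside the low endothelial and high mesothelial marker sums given above, whose part was not tested.

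SLC25A15, the ornithine carrier that serves the urea cycle in mammals, had the largest negative change of the family in fasted vs. fed birds but was divided between birds. Its representative probe set measured 5.41, 5.25, 5.56, 5.24 and 5.94 in fed, 5.28, 5.07, 4.70, 3.35 and 3.27 in fasted and 5.34, 5.33, 4.90, 5.75 and 5.22 in insulin-neutralized birds. Fasted birds 4 and 5 were far below all other birds, and fasted bird 1 overlapped the fed birds. The log2 fold change was -1.15 (SE 0.36, adjusted p = 0.0590), and it was called without fasted bird 1 (-1.38, adjusted p = 0.0276) or fasted bird 2 (-1.33, adjusted p = 0.0393). The second probe set measured 5.06, 5.13, 5.08, 5.00 and 5.43 in fed, 4.25, 4.72, 3.92, 4.85 and 4.02 in fasted and 4.99, 4.81, 5.30, 5.28 and 5.92 in insulin-neutralized birds. Here fasted birds did not overlap fed birds, and the change was called (-0.79, adjusted p = 0.0335), as was that of insulin-neutralized minus fasted birds (0.91, adjusted p = 0.0292). These calls of the second probe set were lost in 11 and 9 of 25 settings. Leaving out fed bird 1, 2, 3 or 5 or fasted bird 1, 3 or 5 ended the former (up to 0.0769), and leaving out insulin-neutralized bird 3, 4 or 5 or fasted bird 1, 3 or 5 ended the latter (up to 0.0758). The former also had an adjusted p of 0.0982 without fed birds 4 and 5.

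The carriers at the entry to fatty acid synthesis and oxidation were called in no comparison. SLC25A1 exports citrate, from which the cytosol makes acetyl-CoA. It measured 10.58, 10.50, 10.77, 11.50 and 10.88 in fed, 10.34, 10.15, 10.73, 10.90 and 10.79 in fasted and 10.62, 10.43, 10.47, 10.38 and 10.84 in insulin-neutralized birds. The groups overlapped, with fed bird 4 the highest, and both treatments gave nearly equal values, -0.27 with fasting (adjusted p = 0.426) and -0.30 with insulin neutralization (adjusted p = 0.427). Without fed birds 4 and 5 they were -0.04 (adjusted p = 0.929) and -0.07. SLC25A20 imports acylcarnitines for oxidation. It measured 11.81, 11.57, 11.71, 11.83 and 11.53 in fed, 11.56, 11.58, 11.93, 11.58 and 11.43 in fasted and 11.59, 11.81, 11.69, 11.56 and 11.47 in insulin-neutralized birds. All groups overlapped, the intervals against fed birds were -0.30 to 0.15 with fasting and -0.29 to 0.16 with insulin neutralization, and a second probe set had the opposite sign with fasting (0.25). SLC25A21, which carries oxodicarboxylates of lysine breakdown, was the most variable member between birds of a group (pooled SD 0.735) and gave -0.54 with fasting (adjusted p = 0.482). Its highest bird of each group, fed bird 4 at 7.58, insulin-neutralized bird 4 at 7.24 and fasted bird 2 at 7.31, was also the highest of its group in the summed mesothelial markers (14.62, 14.21 and 14.25), whose part was not tested. SLC25A38, which brings glycine to heme synthesis, was the member of this role with a positive change (0.19, adjusted p = 0.425).

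Cofactor and metal carriers had 1 call with fasting, where 10.7% of all genes were called. Of 8 such genes 7 were kept, 6 of the 7 were negative in fasted and 6 in insulin-neutralized birds against fed birds, and the medians were -0.24 and -0.26, where 57.2% and 54.7% of all genes were negative. Without fed birds 4 and 5, 5 and 6 were negative, and the medians were -0.14 and -0.16. SLC25A39 imports glutathione into mitochondria in mammals. It measured 5.61, 5.32, 5.91, 6.67 and 5.32 in fed birds. In fasted birds it measured 5.06, 4.71, 4.85, 4.97 and 4.94, and in insulin-neutralized birds 4.86, 4.86, 5.48, 5.18 and 5.55. Every fasted bird lay below every fed bird, and the insulin-neutralized birds overlapped both groups. Fasting lowered SLC25A39 1.81-fold (log2 fold change -0.86, SE 0.23, adjusted p = 0.0320), and -0.58 separated insulin-neutralized from fed birds (adjusted p = 0.233). Fed bird 4 held the highest value, and without fed birds 4 and 5 the change was -0.71 (adjusted p = 0.0334). The call was lost in 9 of 27 settings, among them the omission of fed bird 3 or of fasted bird 2, 3, 4 or 5 (up to 0.0645 without 1 bird). Another probe set of SLC25A39 stayed between 3.36 and 3.62 in all birds, with the same value of 3.44 in 7 of them, and gave -0.05 (adjusted p = 0.708).

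The mitoferrins SLC25A37 and SLC25A28, which import iron, gave -0.53 (adjusted p = 0.275) and -0.00 (adjusted p = 0.995) with fasting, or -0.35 and 0.20 without fed birds 4 and 5. Transcripts of SLC25A37 are abundant in cells that make hemoglobin. The 7 erythrocyte markers kept of 15 listed were called in no comparison, with a summed level of 15.51 to 16.15 in fed, 15.12 to 16.05 in insulin-neutralized and 15.40 to 15.87 in fasted birds. SLC25A37 was highest in fed bird 4 (8.92), insulin-neutralized bird 5 (9.08) and fasted bird 4 (8.37). The same birds were the highest of their groups in the erythrocyte sum (16.15, 16.05 and 15.87), whose part was not tested. The folate or FAD carrier SLC25A32 had 4 kept probe sets, all with a negative log2 fold change with fasting (-0.88 to -0.33), of which 0 were called (representative -0.40, adjusted p = 0.261). SLC25A26, which imports S-adenosylmethionine, gave -0.51 with insulin neutralization (adjusted p = 0.226) and -0.24 with fasting (adjusted p = 0.483), or -0.31 and -0.04 without fed birds 4 and 5. SLC25A51, for NAD, and SLC25A16, linked to coenzyme A, gave -0.07 and 0.09 with fasting, and both turned in sign without fed birds 4 and 5 (0.04 and -0.14).

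Of the uncoupling proteins the array annotation holds UCP3. It measured 2.18 to 2.20 in all 15 birds, at the lowest value of the arrays, 2.18, and was not kept. Its relative SLC25A14 was kept and measured 8.89 to 9.49 in fed, 8.98 to 9.25 in fasted and 8.78 to 8.97 in insulin-neutralized birds. Insulin-neutralized birds lay just below fasted birds without overlap (-0.17, adjusted p = 0.530), and both overlapped the fed birds, of which birds 4 and 5 were the highest. Fasted minus fed birds gave -0.09 with all birds and 0.13 without fed birds 4 and 5. A second probe set gave -0.66 (adjusted p = 0.0668), and 0.29 in insulin-neutralized minus fasted birds (adjusted p = 0.524). SLC25A30, a further relative, varied from 2.45 to 4.96 with overlap of all groups and was not kept. The other members not kept were SLC25A10, SLC25A33, SLC25A42, SLC25A47 and SLC25A48, with no value above 2.60. None of these 7 genes entered the tests under the filter used. Of the members without an assigned substrate, SLC25A43 gave -0.23 and SLC25A46, a protein of the outer membrane that acts in mitochondrial shape, gave -0.14 with fasting, or -0.09 and -0.31 without fed birds 4 and 5. SLC25A47 and SLC25A43 have no gene between them and SLC25A29 and SLC25A5, respectively, in the RefSeq annotation of the chicken genome (GRCg7b).

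**Figure D3:**
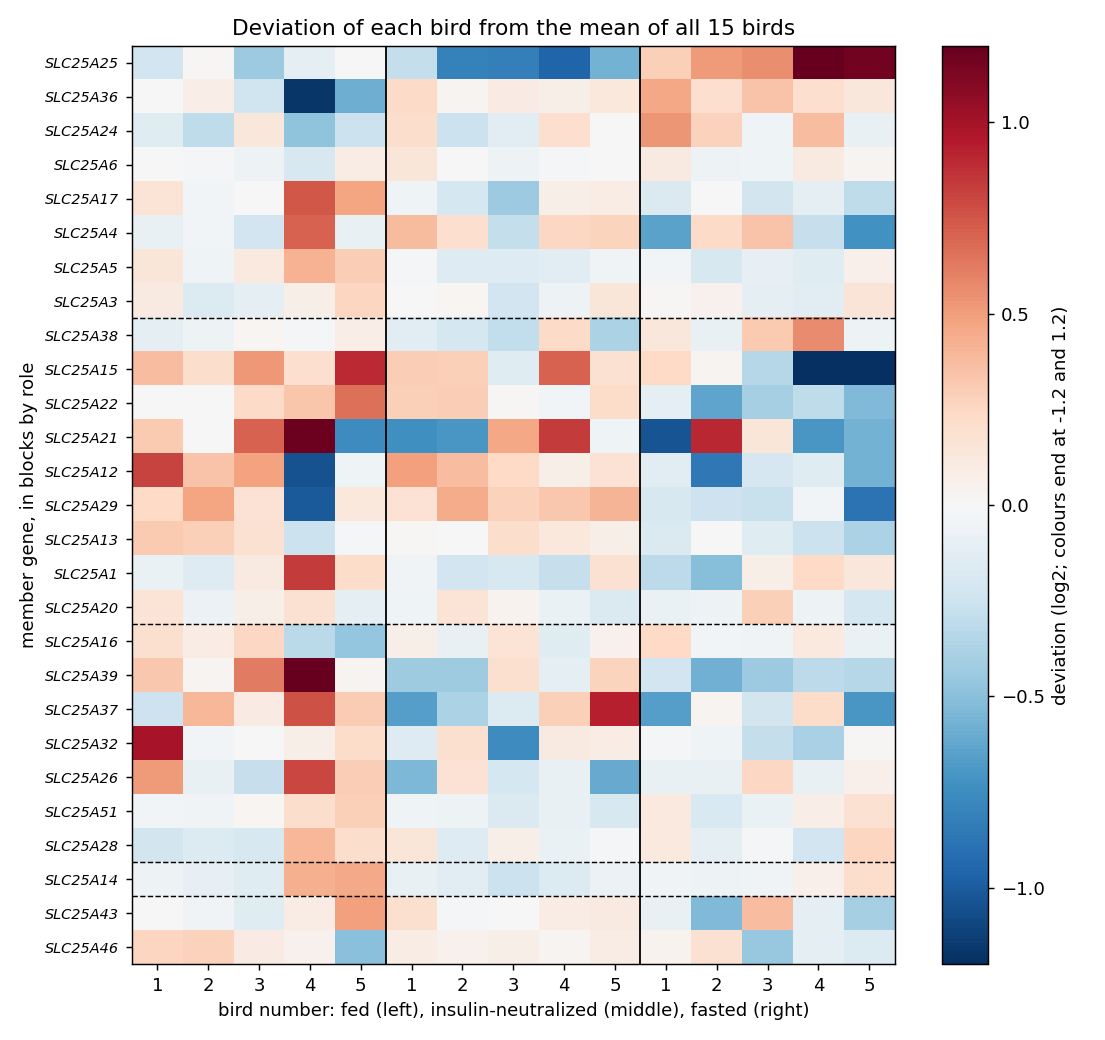
Deviation of each bird from the mean of all 15 birds (log2) for the 27 member genes, in rows by role in the same order as the fold changes, with fed birds at the left, insulin-neutralized birds in the middle and fasted birds at the right. Red is above and blue below the mean, and colours end at -1.2 and 1.2. Fed bird 4 is far from the other fed birds for SLC25A36, SLC25A12 and SLC25A29 (low) and SLC25A39 and SLC25A1 (high).

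Fed birds 4 and 5 both lay outside the range of fed birds 1 to 3 for 14 of the 27 members, above it for 8 and below it for 6. Those below were SLC25A12, SLC25A13, SLC25A16, SLC25A29, SLC25A36 and SLC25A46. Their omission moved log2 fold changes in both directions. In fasted vs. fed birds that of SLC25A1 rose from -0.27 to -0.04. Those of SLC25A36, SLC25A12, SLC25A13 and SLC25A29 all fell. With this the call of SLC25A36 was lost, and SLC25A12, SLC25A13 and SLC25A29 were called. The calls of SLC25A22, SLC25A25 and SLC25A39 were kept. The share of all genes with fed birds 4 and 5 outside the range of the other fed birds was not computed. The count of 14 among 27 members therefore cannot say whether the family stands apart. Within groups, the median pooled SD of the members was 0.239, against 0.275 over all genes. Among the 15 members with several kept probe sets, 12 had all probe sets on the same side of 0 in fasted vs. fed birds and 3 on both sides, and the median range between probe sets of a gene was 0.21.

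**Figure D4:**
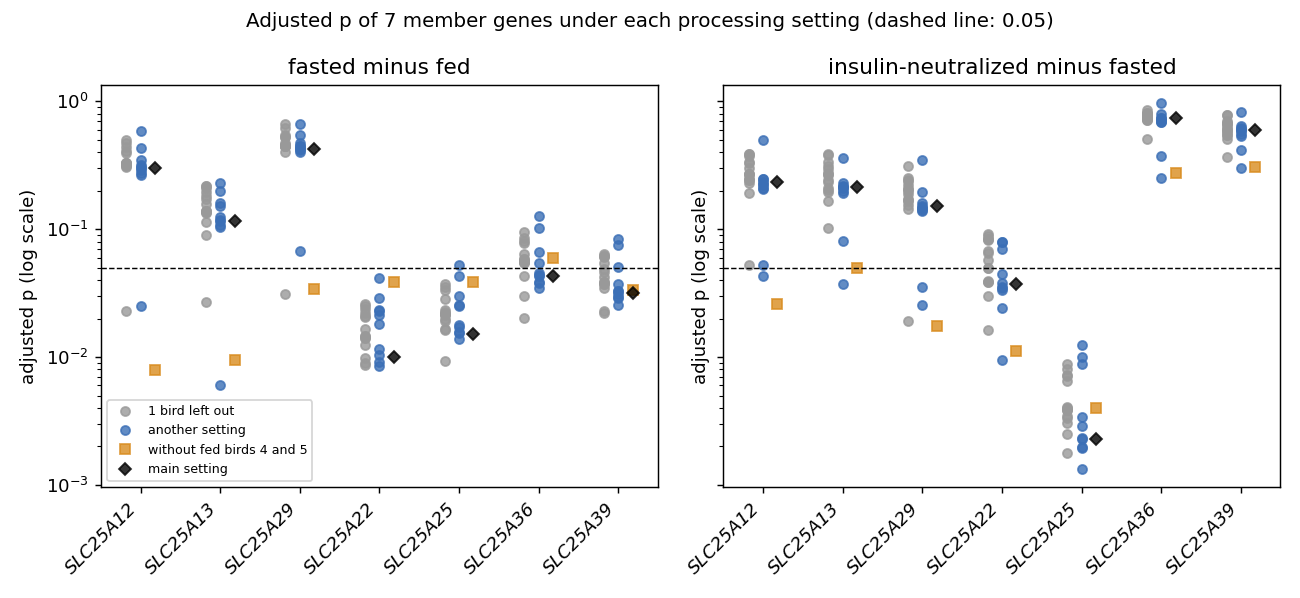
Adjusted p (log axis) of 7 members in fasted minus fed and insulin-neutralized minus fasted birds with all birds (diamonds), without fed birds 4 and 5 (squares), without 1 bird (grey) and under the other settings (blue), with 0.05 as a dashed line. SLC25A22 stays under the line in all settings for fasted minus fed birds and SLC25A25 for insulin-neutralized minus fasted birds, while SLC25A12 moves from 0.299 to 0.00794 without fed birds 4 and 5.

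Of 46 listed enzymes that make or use the substrates of these carriers, 33 were kept. In fasted vs. fed birds 4 were higher and 10 lower (42.4%, beside 10.7% of all genes), with a median log2 fold change of -0.25. The list was chosen with earlier results of these data known. The difference of its share from that of the carriers or of all genes was not tested. The cytosolic isocitrate dehydrogenase IDH1 was 1.80-fold higher (adjusted p = 7.54e-05) and the branched-chain aminotransferase BCAT1, which forms glutamate, 2.16-fold higher (adjusted p = 0.00499). ATP citrate lyase ACLY, which cleaves the citrate that SLC25A1 exports, was 1.88-fold lower (adjusted p = 0.00131), and GCSH, a protein of the glycine cleavage system, 1.48-fold lower (adjusted p = 0.00121). Leaving out fed birds 4 and 5 gave 3 higher and 9 lower (36.4%, beside 9.75% of all genes). In insulin-neutralized vs. fed birds 1 was lower (3.03%, beside 0.595% of all genes), the 2-oxoglutarate dehydrogenase subunit DLST (log2 fold change -0.89, adjusted p = 0.0145). Without fed birds 4 and 5 there was none. Insulin-neutralized vs. fasted birds had 2 higher and 4 lower (18.2%, beside 4.36% of all genes). Among them were GLDC, of the same glycine cleavage system (1.24, adjusted p = 0.0201), and IDH1 (-0.67, adjusted p = 0.0011).

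Other channels and carriers of the mitochondrial membranes had 16 of 21 listed genes kept, with 0 higher and 3 lower in fasted vs. fed birds (18.8%, beside 10.7% of all genes, median -0.18). These were SFXN2, of a family of mitochondrial serine transporters (-1.0, adjusted p = 0.00594), the outer membrane channel VDAC3 (-0.40, adjusted p = 0.0145) and MTCH2, a divergent carrier relative of the outer membrane (-0.48, adjusted p = 0.0420). Leaving out fed birds 4 and 5 gave 2 lower (12.5%, beside 9.75% of all genes). Of the machinery that imports carrier proteins, 12 of 17 listed genes were kept, and 1 was called in fasted vs. fed birds (8.33%, beside 10.7% of all genes). This was TIMM22, the core of the inner membrane insertase for carriers, 1.51-fold lower (adjusted p = 0.0198). Neither list had a call in insulin-neutralized birds against fed or fasted birds, where 0.595% and 4.36% of all genes were called.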

How the data were processed

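Abdominal adipose RNA of 15 chickens was hybridized to Affymetrix chicken arrays, 1 per bird. The deposited log2 values had been made by the authors with GCRMA (R 2.9.0, RMA and GCRMA in the submitters' processing notes). Groups came from the sample labels. From 38535 probe sets, 96 controls were taken out and 19827 with values below 3 on 5 or more arrays. Limma 3.58.1 in R 4.3.3 fitted 3 group means to the 18612 probe sets kept (12 residual degrees of freedom, prior 2.07, median SE of fasted minus fed 0.177), with Benjamini-Hochberg adjustment within each comparison. The fit was tested on simulated data. Precision is limited by the number of arrays. Symbols came from GEO's platform annotation, and all 34 member genes were found in RefSeq by gene ID. The members, roles, lists and tests were chosen with earlier results of these data known. Values of every bird are given for called members, SLC25A1, SLC25A3, SLC25A4, SLC25A5, SLC25A6, SLC25A20 and the largest changes. Those of SLC25A12, SLC25A13 and SLC25A29 were added after their values were seen. Alternatives were other filters, scalings, weights, adjustments, probe sets and fits, and each bird left out. Promoter and protein sequences were not used here. Figures were drawn with matplotlib 3.10.9.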

Additional observations from a re-analysis of the deposited data

Results flagged for a closer look

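In 6 of 81 groups of 5 birds, the highest or lowest bird lay far from the other 4, against the 5% or so of groups that chance marks in this way. SLC25A29 measured 10.48 in fed bird 4, with the other fed birds at 11.61 to 11.96, and 10.60 in fasted bird 5, with the other fasted birds at 11.22 to 11.45. SLC25A4 measured 10.90 in fed bird 4 (others 9.96 to 10.16) and 9.90 in insulin-neutralized bird 3 (others 10.39 to 10.57). In insulin-neutralized bird 3 the summed level of the skeletal muscle markers was 11.70, the highest of the 15 birds, and in fed bird 4 it was 11.22, the highest of the fed birds. The sum in fed bird 4 came mostly from ACTA1 (11.16), while MYL1 (2.65) and TNNT3 (5.84) were at their lowest among fed birds there. The part of the muscle markers in the values of SLC25A4 was not tested. SLC25A32 measured 9.97 in fed bird 1 (others 8.95 to 9.20), and SLC25A46 measured 8.07 in fed bird 5 (others 8.63 to 8.85).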

How the results depend on the processing

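The 4 member genes called in fasted vs. fed birds became 6 with array weights, 2 with no filter on low values, 1 when the fit held only the groups compared, 2 with the 3 comparisons adjusted together, and 2 to 7 without 1 bird. There were 2 without fasted bird 3, 4 or 5 or fed bird 3 and 7 without fed bird 4. Of all probe sets, 9.64% were called in the main fit, 11.7% with array weights and 3.09% with no filter. The share was 5.16% with only the groups compared and 7.07% with the 3 comparisons adjusted together. It was 6.34% to 9.84% without 1 bird, and 7.85% without fed bird 4. With no filter, p-values were adjusted over more probe sets, and with fewer groups in the fit, the spread came from the birds of the groups compared. What moved the count in each setting was not tested. The 2 genes called in insulin-neutralized vs. fasted birds became 1 with no filter, 1 with arrays centred on their medians, 4 when the fit held only the groups compared, 5 with array weights, 4 without fed birds 4 and 5, and 1 to 3 without 1 bird, with 1 without fasted bird 2, 3, 4 or 5 or insulin-neutralized bird 1, 2, 3 or 5. Of all probe sets, 4.06% were called between these treatments in the main fit, 1.21% with no filter and 3.78% with centred arrays. The share was 5.57% with only the groups compared and 9.61% with array weights. It was 8.12% without fed birds 4 and 5 and 2.34% to 5.02% without 1 bird. The count of 0 in insulin-neutralized vs. fed birds held in every setting, where 0.0322% to 2.06% of all probe sets were called. No called change of a member reversed in any setting. The labels do not say that a bird number is shared between groups. Same-numbered birds of different groups had correlations of -0.392 to 0.382 in their deviations from the group means. Birds with different numbers were not correlated for reference, so that these values cannot decide whether the numbers pair the birds. With the replicate block, 4, 0 and 1 genes were called in the order of the comparisons above, insulin-neutralized vs. fed second. Of all probe sets, 8.26%, 0.043% and 3.43% were called with it in the same order. Low signal limits SLC25A15, SLC25A21, SLC25A25, SLC25A26 and SLC25A39 and the 7 genes not kept.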
